A study of Mus musculus with 20 samples.

Results

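The genes described are 8 genes of fatty acid elongation and desaturation, namely the desaturase genes Scd2, Fads1, Fads2 and Fads3 and the elongase genes Elovl1, Elovl2, Elovl3 and Elovl5. They were found in the files by gene symbol alone, and all 8 of the 8 are among the 22298 genes listed for each liver. All 8 also passed the filter on low counts, which kept 12342 genes. The livers came from 20 male Lepr db/db mice, which carry a defective leptin receptor and become obese and diabetic, so no lean liver is among them. At 5 weeks of age all mice were injected by the tail vein with AAV8, which carried a non-targeting shRNA for the control mice and a 4-in-1 shRNA against Pparg, the gene of PPARγ, for the knockdown mice, and the promoter that drives these shRNAs is not given in the sources used here. The mice then received CMC-Na vehicle or benzbromarone (BBR), a uricosuric drug given for gout, by gavage at 25 mg per kg once daily for 4 weeks. There were 5 mice in each of the groups Vec (labelled control), Vec+BBR (benzbromarone), shRNA (PPAR knockdown) and shRNA+BBR (benzbromarone with PPAR knockdown). Poly(A) RNA of whole liver was sequenced, with 1 mouse per library, after a fast that was the same for all groups.

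Fatty acids from the diet or from lipogenesis are lengthened in the endoplasmic reticulum by a cycle of condensation, reduction, dehydration and reduction, and the ELOVL enzymes carry out the condensation that sets which chain is lengthened. Desaturases place double bonds in the chain with electrons passed on from NADH by cytochrome b5. SCD enzymes make monounsaturated fatty acids, and FADS1 and FADS2 act in turn with ELOVL5 and ELOVL2 to make long polyunsaturated fatty acids such as arachidonic acid and docosahexaenoic acid from the essential fatty acids. ELOVL1 and ELOVL3 lengthen saturated and monounsaturated chains, ELOVL1 toward the very long chains of sphingolipids. In liver, many of these genes are under the control of SREBP-1, and Scd1 is the main stearoyl-CoA desaturase gene of adult liver, whereas Scd2 is best known from brain and from development.

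Each library held between 17432904 and 25024099 counts, and a count of 3, taken as the floor, corresponded to between 0.12 and 0.172 CPM, that is, counts scaled to the library size. Pparg fell with knockdown by 2.12 on the log2 scale without BBR (edgeR adjusted p = 4.47e-05) and by 1.20 under BBR (edgeR adjusted p = 0.00843), and its level under BBR was 13.9 ± 6.22 CPM in knockdown livers against 5.73 ± 1.53 CPM without BBR (SD, n = 5 each). The 5 Vec livers were unlike each other in lipogenic genes. Scd1 was at 28700 CPM in Vec replicate 3 and at 707 CPM in Vec replicate 4, against 25600 to 32400 CPM in the Vec+BBR livers, so a call of the 8 genes that changes without either of these 2 mice is given with and without it. Markers of hepatocytes were high in every liver (summed 88300 to 151000 CPM over 7 genes). Of 7 stellate cell markers, 3 rose with BBR in Vec mice, where 7.58% of all genes rose, and 4 rose with BBR in shRNA mice, where 8.37% rose. The summed level of the 7 was 151 to 282 CPM among Vec and 301 to 336 CPM among Vec+BBR livers. It was 187 to 248 CPM among shRNA and 249 to 379 CPM among shRNA+BBR livers. Summed adipocyte markers did not exceed 6.31 CPM in any liver, and Plin1 had at most 3 counts, but Vec+BBR replicate 3 held 11 counts of Lep, which was at 0 in the other 19 livers. Adipoq, another adipocyte marker, reached 0.476 CPM among the Vec+BBR livers and at most 0.0947 CPM in the other groups. In bulk liver a change in the number of cells of a type and a change in RNA per cell cannot be told apart.

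On the FPKM scale, which is set per transcript length and so allows levels of different genes to be compared, Fads2 had the highest median level of the 8 genes over the 20 livers, at 220 FPKM with a range from 79.3 to 337 FPKM. Elovl5, which lengthens polyunsaturated chains, came next at a median of 189 FPKM, and its range from 66.0 to 457 FPKM enclosed that of Fads2. Fads1 followed at 90.1 FPKM (29.2 to 142), Elovl2 at 46.8 FPKM (30.6 to 88.1), Elovl1 at 29.5 FPKM (20.6 to 41.8) and Elovl3 at 13.5 FPKM (3.72 to 19.5). The pathway of polyunsaturated fatty acids thus held the 4 highest medians of the 8 genes, and each gene in this order overlapped in range with the next except Elovl1 with Elovl3. Scd2 at 1.48 FPKM (0.731 to 5.03) and Fads3 at 0.976 FPKM (0.502 to 2.19) were the lowest, and their ranges did not meet that of Fads1, Fads2, Elovl1, Elovl2 or Elovl5. Scd1, the close relative of Scd2, had a median of 4860 FPKM with a range from 146 to 7380 FPKM. Elovl6, the elongase of palmitate, lay within the order at 25.4 FPKM (5.93 to 51.1).

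**Figure D1:**
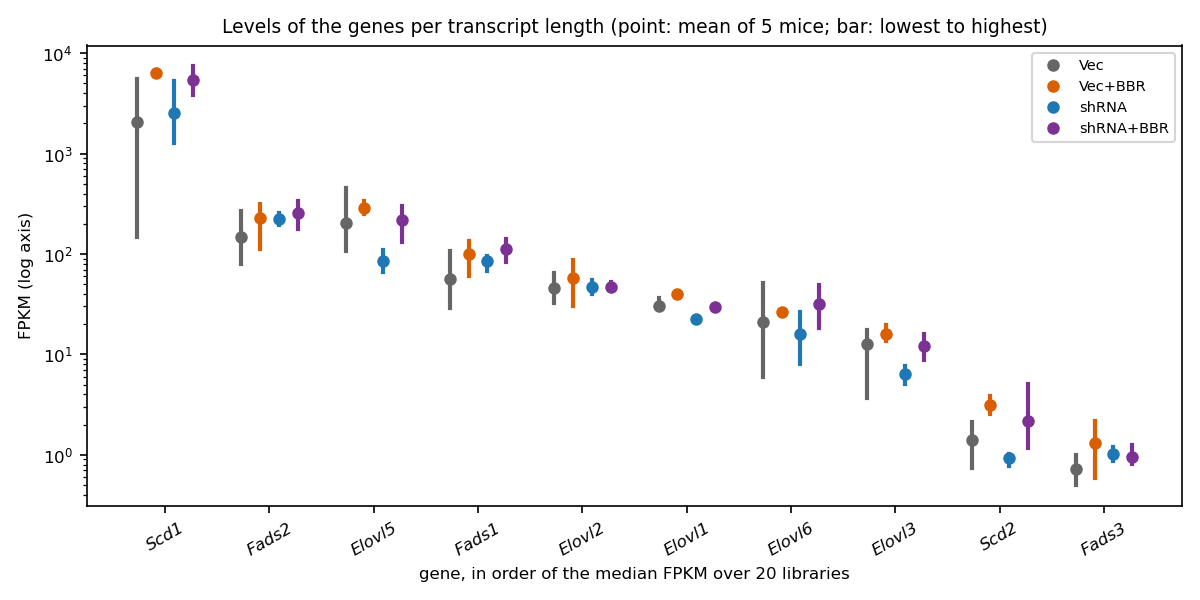
FPKM on a log axis for the 8 genes with Scd1 and Elovl6, in the order of their median over 20 livers; points are means of 5 mice and bars run from the lowest to the highest mouse of each group. Scd1 stands above all others with a median of 4860 FPKM, and Scd2 and Fads3 stand below at 1.48 and 0.976 FPKM.

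Scd2, Elovl3 and the 3 FADS genes lie on chromosome 19 of GRCm38. Fads3 (ENSMUSG00000024664, 10041569 to 10060110, plus strand), Fads2 (ENSMUSG00000024665, 10062765 to 10101746, minus strand) and Fads1 (ENSMUSG00000010663, 10182888 to 10196877, plus strand) follow each other within 155309 bases. Scd2 (ENSMUSG00000025203, 44293674 to 44306864, plus strand) lies 87590 bases from Scd1, and Elovl3 (ENSMUSG00000038754, 46131897 to 46135694, plus strand) is on the same chromosome. Elovl1 (ENSMUSG00000006390) is on chromosome 4 from 118428093 to 118432953 on the plus strand, Elovl2 (ENSMUSG00000021364) on chromosome 13 from 41182381 to 41220405 on the minus strand, and Elovl5 (ENSMUSG00000032349) on chromosome 9 from 77917364 to 77984519 on the plus strand. All 8 are annotated as protein coding. The last 53 bases of Elovl1 overlap Cdc20 on the other strand and the last 10 bases of Elovl3 overlap Pitx3 on the other strand, and whether strand was used in the counting is not given in the sources used here. Reads from these stretches cannot be assigned to 1 of the 2 genes without strand.

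RefSeq promoter windows (GRCm38.p6, 250 bases before to 50 after the start) were at hand for 5 of the 8 genes. The 250 bases before the start of Elovl1 (the first of 2 listed starts) and Elovl5, elongase genes that fell with knockdown of PPARγ as Elovl3 did, which has no window here, and of Fads3 from the desaturase cluster, are shown here 5′ to 3′ on the plus strand, which is the strand of all 3 genes. Capitals mark the E-box CACGTG, the CCAAT box CCAAT and the GC box GGGCGG, on either strand.
Elovl1, chr4:118427843-118428092: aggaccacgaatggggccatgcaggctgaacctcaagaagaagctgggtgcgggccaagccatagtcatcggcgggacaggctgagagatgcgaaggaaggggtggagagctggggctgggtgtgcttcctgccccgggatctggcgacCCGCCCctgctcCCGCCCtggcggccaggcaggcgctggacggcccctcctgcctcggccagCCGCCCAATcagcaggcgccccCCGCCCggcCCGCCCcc
Elovl5, chr9:77917115-77917364: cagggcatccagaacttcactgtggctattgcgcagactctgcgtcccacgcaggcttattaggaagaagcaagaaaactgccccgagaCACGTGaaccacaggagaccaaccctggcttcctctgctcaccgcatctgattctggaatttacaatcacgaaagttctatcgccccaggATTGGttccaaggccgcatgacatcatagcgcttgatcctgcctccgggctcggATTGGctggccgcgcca
Fads3, chr19:10041298-10041547: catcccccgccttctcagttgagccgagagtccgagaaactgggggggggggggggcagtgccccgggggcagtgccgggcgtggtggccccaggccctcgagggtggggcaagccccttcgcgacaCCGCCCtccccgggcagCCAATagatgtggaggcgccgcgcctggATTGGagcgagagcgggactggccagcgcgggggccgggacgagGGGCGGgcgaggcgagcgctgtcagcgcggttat
The 250 bases shown for Elovl1 hold 5 GC boxes and 1 CCAAT box, of which the CCAAT box and 1 GC box share 2 bases. Those of Elovl5 hold 1 E-box and 2 CCAAT boxes and no GC box, and those of Fads3 hold 2 CCAAT boxes and 2 GC boxes. Of 32851 mouse promoter windows, counted over the 250 bases before the start alone, 6.02% hold CACGTG, 33.8% hold CCAAT and 32.7% hold GGGCGG on either strand. The letters TCACNCCAC of the sterol regulatory element, searched in the same 250 bases, are in 1.05% of all windows. They are in none of the 250-base stretches at hand for these genes. Such matches describe the letters of these windows and were not tested for binding of a factor.

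The number of the 8 genes that passed the threshold was counted in each of the 4 comparisons, and differences between these numbers were not tested. Between Vec+BBR and Vec livers, 2 of 8 genes rose, Scd2 and Elovl1, and 0 fell (edgeR's quasi-likelihood test, adjusted p under 0.05), where 7.58% of all 12342 genes rose and 7.88% fell. All 8 log2 fold changes were positive, with a median of 0.423 against -0.005 over all genes. At an unadjusted p under 0.05 the number was 4 of 8, where 30.2% of all genes passed, and in the next 3 comparisons it was 4, 1 and 4, where 28.4%, 24.7% and 33.2% passed. Between shRNA and Vec livers, 3 of 8 genes fell, Elovl1, Elovl3 and Elovl5, and 0 rose, where 7.91% of all genes fell and 5.28% rose. The median was -0.305 against -0.00924 over all genes. Between shRNA+BBR and Vec+BBR livers, Elovl1 fell and no other gene of the 8 passed, where 4.82% of all genes fell and 3.31% rose. The median was -0.312 against -0.00415. Between shRNA+BBR and shRNA livers, 4 of 8 genes rose, Scd2, Elovl1, Elovl3 and Elovl5, where 8.37% of all genes rose and 7.28% fell, and the median was 0.40 against 0.00799. The 2 comparisons with BBR and the 2 with knockdown share groups of mice and are therefore not independent of each other.

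**Figure D2:**
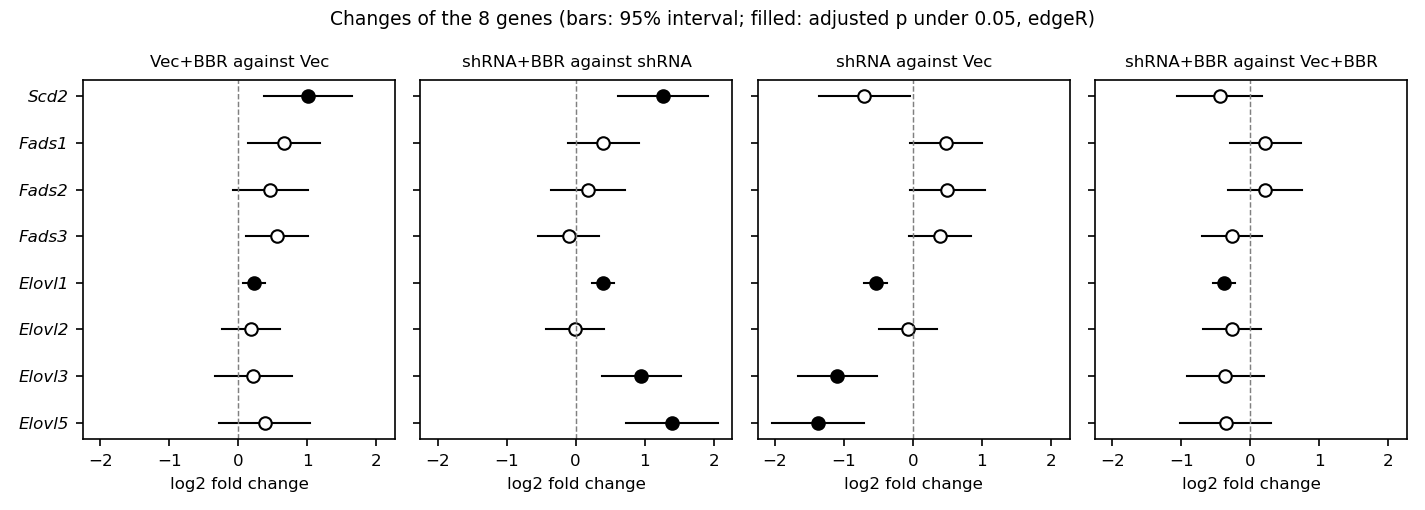
Log2 fold changes with 95% intervals of the 8 genes in the 4 comparisons; filled points have an adjusted p under 0.05 in edgeR. Elovl1 is filled in all 4 panels, and Fads1, Fads2, Fads3 and Elovl2 are open in all 4.

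Scd2, a stearoyl-CoA desaturase gene, rose with BBR in both kinds of mice. It was at 4.26, 8.68, 12.2, 6.49 and 8.76 CPM in the 5 Vec livers and at 14.6, 18.4, 18.2, 14.6 and 15.3 CPM in the 5 Vec+BBR livers. The groups did not overlap, which was the case for 4.7% of all genes in this direction, and the change was 2.01-fold (log2 fold change 1.01, standard error 0.31, edgeR adjusted p = 0.0305). The call was lost when Vec replicate 1, 2 or 4 or Vec+BBR replicate 2 or 3 was left out, with adjusted p-values up to 0.0878 over 28 alternatives. Without Vec replicate 4 the log2 fold change was 0.94 (edgeR adjusted p = 0.0645). Knockdown livers without BBR held 4.25, 5.19, 4.75, 5.43 and 5.13 CPM of Scd2, and those with BBR held 7.71, 10.2, 8.38, 27.1 and 6.16 CPM. Again no BBR-treated liver overlapped with the others, as for 5.79% of all genes in this direction, and the log2 fold change was 1.27 (standard error 0.31, edgeR adjusted p = 0.0142). The size of this change rested on shRNA+BBR replicate 4, and without it the log2 fold change was 0.71 with an edgeR adjusted p of 0.037. Without that mouse Scd2 also fell with knockdown under BBR (log2 fold change -0.998, edgeR adjusted p = 0.00587). With all 20 mice it did not pass there (-0.44, edgeR adjusted p = 0.378). Between shRNA and Vec livers that mouse is in neither group, and the log2 fold change was -0.7045 without it and -0.705 with all mice. The edgeR adjusted p was 0.0238 without it and 0.149 with all mice, from a fit that all 4 groups share. In that comparison Scd2 passed in only 1 of 28 alternatives, the one without that mouse.

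Scd2 shares sequence with Scd1, and its counts were 0.0167% to 0.918% of the Scd1 counts of the same liver. The deposited counts of Scd2 were not whole in 11 of 20 livers, by at most 0.02 counts, and those of Scd1 were not whole in 12, whereas the counts of the other 7 genes were whole in all 20. In each of the 11 livers the fractions of Scd2 and Scd1 made up a whole count, as in Vec replicate 4 (128.01 and 13942.99 counts). Counts that are not whole show that some reads of Scd2 also matched another gene, by these fractions Scd1, but not how many. The values of Scd2 are uncertain in that respect. Within groups Scd2 and Scd1 had Pearson's r = 0.401 and Spearman's rho = 0.37 over 20 libraries, and r = 0.457 without the 2 libraries farthest from the median of Scd2. They did not go together in every liver. The shRNA liver with the highest Scd1 level, replicate 1 at 25400 CPM, had the lowest Scd2 level of its group at 4.25 CPM, and the Vec liver with the lowest Scd1 level, replicate 4 at 707 CPM, had 6.49 CPM of Scd2. In the same comparisons as Scd2, some stellate cell markers rose. With BBR in Vec mice 3 of 7 rose, and all 7 log2 fold changes were positive. With BBR in shRNA mice 4 of 7 rose, and 6 log2 fold changes were positive. The 1 negative was that of Reln (40.5 ± 4.57 to 29.5 ± 7.27 CPM). Col1a1, a collagen gene among those that rose, went from 10.6 ± 6.01 to 24.2 ± 3.77 CPM with BBR in Vec mice. In shRNA mice it went from 4.91 ± 0.994 to 15.9 ± 6.94 CPM with BBR (mean ± SD of 5). The part of these markers in the change of Scd2 was not tested.

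The 3 genes of the FADS cluster did not pass the threshold in any of the 4 comparisons in edgeR with all 20 mice, but some of them passed under alternatives. Fads1, which encodes the later of the 2 front-end desaturases of polyunsaturated fatty acid synthesis, was at 107, 162, 389, 167 and 209 CPM in Vec and at 217, 355, 340, 435 and 292 CPM in Vec+BBR livers. It was at 333, 229, 330, 268 and 284 CPM in shRNA and at 476, 392, 291, 439 and 312 CPM in shRNA+BBR livers. Vec replicate 3 lay above every shRNA liver and within the range of the Vec+BBR and of the shRNA+BBR livers. The other 4 Vec livers lay below every liver of the 3 other groups. The log2 fold change was 0.67 with BBR in Vec mice (95% interval 0.15 to 1.19, edgeR adjusted p = 0.0745), and without Vec replicate 3 it was 1.02 (edgeR adjusted p = 0.00143). Fads1 also passed there with library size alone (edgeR adjusted p = 0.0353), without Vec+BBR replicate 1 (edgeR adjusted p = 0.0414), with DESeq2 (adjusted p = 0.0424) and with limma-voom (adjusted p = 0.00781). Between shRNA and Vec livers it was 0.48 (edgeR adjusted p = 0.207), without that mouse 0.84 (edgeR adjusted p = 0.00929), and with limma-voom 0.69 (adjusted p = 0.0472).

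Fads2, which encodes the first and rate-limiting desaturase of the same pathway, had a similar order of levels. The Vec livers held 267, 366, 907, 460 and 469 CPM and the Vec+BBR livers 371, 851, 673, 925 and 585 CPM. The shRNA livers held 801, 701, 707, 686 and 598 CPM, against 1030, 692, 571, 907 and 765 CPM with BBR added. All 5 shRNA livers were above 4 of the 5 Vec livers and below Vec replicate 3. Without that mouse the log2 fold change between shRNA and Vec livers was 0.84 (edgeR adjusted p = 0.0176), and with it 0.50 (edgeR adjusted p = 0.207), while limma-voom gave 0.73 (adjusted p = 0.0413). The log2 fold change with BBR was 0.46 in Vec mice (95% interval -0.07 to 1.00) and 0.18 in shRNA mice (95% interval -0.35 to 0.72). In Vec mice it was 0.79 without Vec replicate 3 (edgeR adjusted p = 0.015) and 0.70 with limma-voom (adjusted p = 0.0395). Fads3, whose product desaturates sphingoid bases, was at low levels, from 33 to 125 counts per library. Its medians were 2.40 CPM among Vec livers (2.12 to 3.92), 4.14 with BBR (2.27 to 5.58), 3.64 with knockdown (3.18 to 4.39) and 3.27 with both (2.91 to 4.52), and all groups overlapped. Its log2 fold change with BBR was 0.56 in Vec mice (edgeR adjusted p = 0.0824) and -0.10 in shRNA mice, and the difference of -0.66 passed only an unadjusted p (0.0402, edgeR adjusted p = 0.25). In Vec mice Fads3 passed without Vec replicate 3 (0.70, edgeR adjusted p = 0.0298), without Vec+BBR replicate 1 (edgeR adjusted p = 0.0171), with library size alone (edgeR adjusted p = 0.0429) and with limma-voom (adjusted p = 0.0379).

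Counts of Fads1 were 36.4% to 44.5% of those of Fads2 in Vec livers, 41.7% to 58.6% in Vec+BBR, 32.7% to 47.5% in shRNA and 40.8% to 56.6% in shRNA+BBR livers, with overlap between the groups. Of 7 other tested genes within 200000 bases of the cluster, Fth1, which encodes the ferritin heavy chain and was named after its values were seen, fell with knockdown by 0.44 in log2 terms (edgeR adjusted p = 0.0054), where the log2 fold changes of the 3 FADS genes were between 0.39 and 0.50, and rose with BBR in shRNA mice by 0.34 (edgeR adjusted p = 0.0251), where they were between -0.10 and 0.40.

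**Figure D3:**
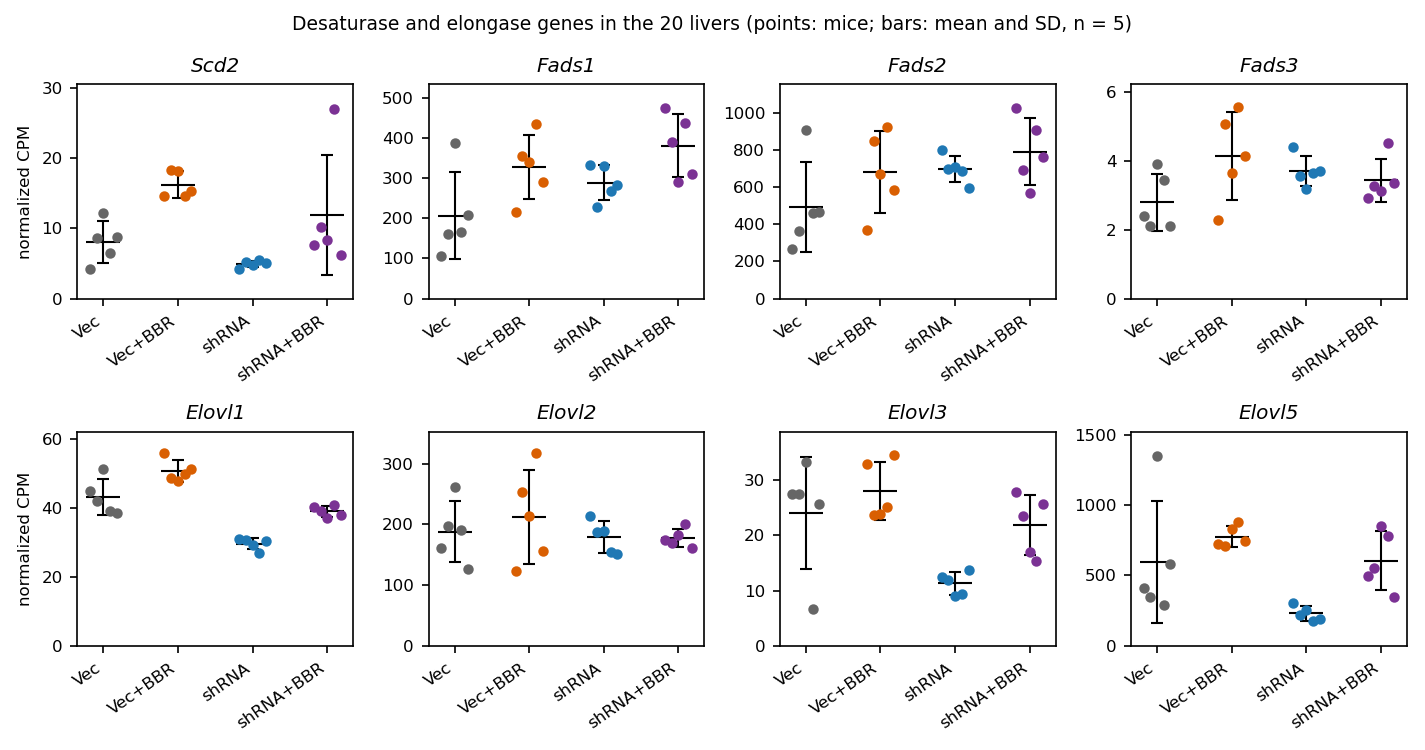
Normalized CPM of the 8 genes in each of the 20 livers by group, with the mean and SD of 5 mice. The Vec+BBR livers lie above all Vec livers for Scd2 (14.6 to 18.4 against 4.26 to 12.2 CPM), the shRNA livers lie below all others for Elovl1 (26.9 to 31.0 CPM), and single mice stand apart in Elovl5 (Vec replicate 3, 1350 CPM), Elovl3 (Vec replicate 4, 6.69 CPM) and Scd2 (shRNA+BBR replicate 4, 27.1 CPM).

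Elovl5, the elongase of the middle steps of polyunsaturated fatty acid synthesis, fell with knockdown of PPARγ and was higher in shRNA mice that received BBR. It was at 411, 344, 1350, 291 and 582 CPM in Vec and at 304, 216, 257, 178 and 193 CPM in shRNA livers. Only shRNA replicate 1 was above the lowest Vec liver, and the change was 2.59-fold (log2 fold change -1.38, standard error 0.32, edgeR adjusted p = 0.00703). It passed in all 28 alternatives, with log2 fold changes from -1.55 to -0.82, the smallest of them without Vec replicate 3. In shRNA+BBR livers Elovl5 was at 499, 551, 849, 782 and 346 CPM, all above the 5 shRNA livers, and the change against shRNA was 2.64-fold (log2 fold change 1.40, standard error 0.32, edgeR adjusted p = 0.00994). In the Vec+BBR livers it was at 721, 707, 827, 881 and 744 CPM, above 4 of the 5 Vec livers. The log2 fold change with BBR in Vec mice was 0.38 (95% interval -0.28 to 1.04, edgeR adjusted p = 0.449), and without Vec replicate 3 it was 0.92 (edgeR adjusted p = 0.00773). The difference between the BBR effects in shRNA and Vec mice was 1.02 on the log2 scale (95% interval 0.09 to 1.95, unadjusted p = 0.0335, edgeR adjusted p = 0.234), and without Vec replicate 3 that difference fell to 0.48.

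Elovl2, which lengthens polyunsaturated chains toward docosahexaenoic acid, passed in no comparison. Its median was 191 CPM among Vec livers (126 to 262), 214 with BBR (123 to 317), 188 with knockdown (151 to 214) and 175 with both (162 to 201), and all groups overlapped. The 4 log2 fold changes lay between -0.26 and 0.18. Their 95% intervals were -0.24 to 0.60 with BBR in Vec mice, -0.49 to 0.35 with knockdown, -0.68 to 0.16 with knockdown under BBR and -0.43 to 0.41 with BBR in shRNA mice, so a change of more than 0.68 on the log2 scale lay outside all 4. The sign of its small change between shRNA and Vec livers turned under scaling by library size alone.

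Elovl1, the elongase of saturated and monounsaturated very long chains, had the smallest spread of the 8 genes within each group and was the only one of them that passed in all 4 comparisons. It was at 44.8, 42.0, 51.2, 39.1 and 38.4 CPM in Vec and at 31.0, 30.7, 29.2, 26.9 and 30.3 CPM in shRNA livers. These groups did not overlap, as for 5.01% of all genes in this direction, and Elovl1 was 1.46-fold lower with knockdown (log2 fold change -0.54, standard error 0.08, edgeR adjusted p = 0.000103). It was at 56.0, 48.6, 47.9, 49.7 and 51.2 CPM in Vec+BBR and at 40.3, 39.2, 36.9, 40.8 and 37.8 CPM in shRNA+BBR livers. These groups did not overlap either, as for 5.19% of all genes in this direction (log2 fold change -0.38, standard error 0.08, edgeR adjusted p = 0.00535), and the shRNA+BBR livers were all above the shRNA livers (log2 fold change 0.40, standard error 0.08, edgeR adjusted p = 0.00471). Each of these 3 calls was kept in all 28 alternatives. The rise with BBR in Vec mice was smaller, at 1.18-fold (log2 fold change 0.23, standard error 0.08, edgeR adjusted p = 0.0438). In that comparison Vec replicate 3 lay among the Vec+BBR livers and the other 4 Vec livers below them. This call was lost in 18 of 28 alternatives, with adjusted p-values up to 0.126. One of them was the fit without Vec replicate 4 (log2 fold change 0.20, edgeR adjusted p = 0.099). The difference between the BBR effects in shRNA and Vec mice was 0.16 (95% interval -0.06 to 0.39, edgeR adjusted p = 0.419).

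Elovl3, an elongase of saturated and monounsaturated chains whose liver expression is known to follow the clock and to differ by sex, fell with knockdown. It was at 27.4, 27.5, 33.2, 6.69 and 25.7 CPM in Vec and at 12.5, 11.9, 9.06, 9.33 and 13.7 CPM in shRNA livers. Vec replicate 4 was below all shRNA livers, and the other 4 Vec livers were above them. The log2 fold change was -1.09 (standard error 0.28, edgeR adjusted p = 0.0115), and without Vec replicate 4 it was -1.33 (edgeR adjusted p = 4.16e-05). In the shRNA+BBR livers Elovl3 was at 27.9, 23.5, 16.9, 15.4 and 25.6 CPM, all above the shRNA livers (log2 fold change 0.95, standard error 0.27, edgeR adjusted p = 0.026). That call was lost without shRNA replicate 3 or 4 or shRNA+BBR replicate 2, with adjusted p-values up to 0.0615. With BBR in Vec mice the level was 23.7 to 34.5 CPM and the log2 fold change was 0.22 (95% interval -0.34 to 0.77), and it was -0.02 without Vec replicate 4.

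Across the 2 BBR effects, 0 of the 8 genes differed at an adjusted p under 0.05 in edgeR, DESeq2 or limma-voom. Of all genes, 0.146% did in edgeR, 2.67% in DESeq2 and 1.25% in limma-voom. At an unadjusted p under 0.05 the number in edgeR was 2, Elovl5 and Fads3, where 18.5% of all genes passed. For most of these genes the intervals of the difference were wide, as for Scd2 (-0.65 to 1.17 on the log2 scale) and Fads1 (-0.99 to 0.47).

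How many of the 8 genes passed with BBR in Vec mice depended on single mice. Without Vec replicate 3, 6 of 8 genes passed, where 19.3% of all genes passed in either direction, and the 6 were all but Elovl2 and Elovl3 and all higher. The number was 0 without Vec replicate 1, 2 or 4 (10%, 9.93% and 12.8% of all genes) or without Vec+BBR replicate 2 or 3 (10.4% and 11.6%). With all mice 15.5% of all genes passed. Between shRNA and Vec livers the number was 5 without Vec replicate 3, where Fads1 and Fads2 were higher and Elovl1, Elovl3 and Elovl5 lower, against 10.4% of all genes. Between shRNA+BBR and shRNA livers, the number was 4 with all mice, where 15.7% of all genes passed. It was 3 without shRNA replicate 3 or 4 (12.8% and 9.31% of all genes) or without shRNA+BBR replicate 2 (9.16%). In all other alternatives it was 4, where 5.31% to 20.3% of all genes passed.

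**Figure D4:**
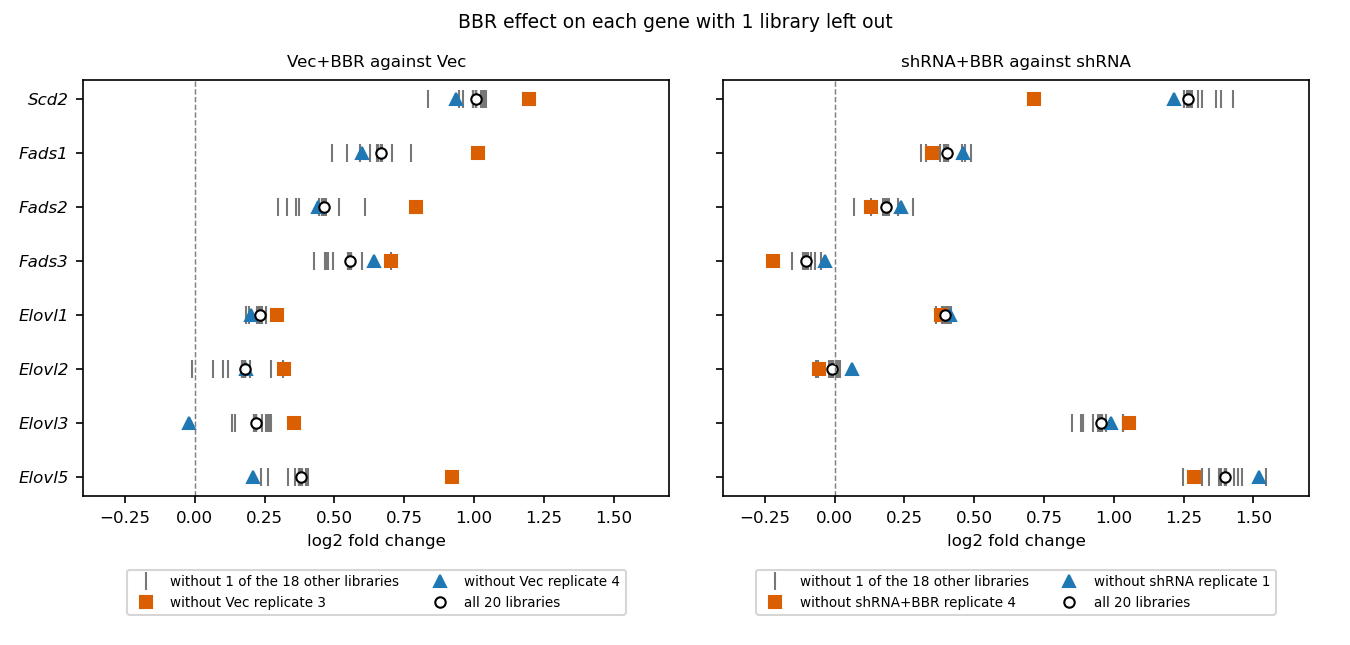
Log2 fold changes of the 8 genes with BBR in Vec mice (left) and in shRNA mice (right), with all 20 libraries and with each library left out in turn. Without Vec replicate 3 the value of Elovl5 moves from 0.38 to 0.92 and that of Fads1 from 0.67 to 1.02, and without shRNA+BBR replicate 4 the value of Scd2 moves from 1.27 to 0.71.

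The other enzymes of elongation and desaturation were followed as a list of 15 genes, of which 12 were tested. Counts of this list and of the lists that follow stand beside these shares of all 12342 genes. With BBR 7.58% rose and 7.88% fell in Vec mice, and 8.37% rose and 7.28% fell in shRNA mice. With knockdown 5.28% rose and 7.91% fell, and with knockdown under BBR 3.31% rose and 4.82% fell. The 4 medians over all genes lay between -0.00924 and 0.00799. With BBR in Vec mice, 2 rose and 0 fell, with a median log2 fold change of 0.216. Hsd17b12, the ketoacyl-CoA reductase of the elongation cycle, was at 115 to 269 CPM in Vec and 291 to 332 CPM in Vec+BBR livers without overlap (log2 fold change 0.77, edgeR adjusted p = 0.00671). Elovl7, an elongase of saturated chains, was at 0.10 to 0.588 CPM in Vec and 1.15 to 3.84 CPM in Vec+BBR livers (log2 fold change 3.30, edgeR adjusted p = 0.000167), but from 2 to 12 counts in the Vec livers, close to the floor. In shRNA mice BBR raised 3 of the 12, which were Hsd17b12 (0.62, edgeR adjusted p = 0.0275), Elovl7 (1.38, edgeR adjusted p = 0.0355) and Cyb5r3, the reductase that feeds electrons to the desaturases (0.67, edgeR adjusted p = 0.0153). Fads6, a desaturase-like gene, fell (-0.59, edgeR adjusted p = 0.0176), and the median was 0.25. With knockdown, Hacd1, a dehydratase gene of the cycle, rose by 0.41 (edgeR adjusted p = 0.0169) and its relative Hacd3 fell by 0.27 (edgeR adjusted p = 0.00871), with a median of -0.13. With knockdown under BBR, Hacd1 rose by 0.68 (edgeR adjusted p = 0.00112) and Hsd17b12 fell by 0.61 (edgeR adjusted p = 0.0386), with a median of -0.112. Scd1 and Elovl6 passed in none of these comparisons in edgeR with all 20 mice. The log2 fold change of Scd1 with BBR was 1.49 in Vec mice (edgeR adjusted p = 0.0918) and 1.12 in shRNA mice (edgeR adjusted p = 0.188), and that of Elovl6 was 0.20 and 1.04 (edgeR adjusted p = 0.802 and 0.099). In Vec mice Scd1 passed without Vec replicate 3 (2.30, edgeR adjusted p = 0.0074), with DESeq2 (adjusted p = 0.0301) and with limma-voom (2.36, adjusted p = 0.00385). In shRNA mice Scd1 and Elovl6 passed when only those 2 groups were fitted (edgeR adjusted p = 0.0341 and 0.0424), and Elovl6 passed without Vec replicate 3 (edgeR adjusted p = 0.0415).

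Of 12 genes of acyl-CoA supply and its regulators, 2 fell with BBR in Vec mice (median log2 fold change 0.073) and 3 fell with BBR in shRNA mice (median 0.072), and the medians of the list were -0.125 with knockdown and -0.055 with knockdown under BBR. Srebf1, which encodes SREBP-1, was at 191 to 247 CPM in Vec and 137 to 166 CPM in Vec+BBR livers (log2 fold change -0.57, edgeR adjusted p = 0.0444, lost in 15 of 28 alternatives with values up to 0.11). It also fell in shRNA mice (-0.75, edgeR adjusted p = 0.0154), as did Mlxipl, while Nr1h2, which encodes LXRβ, fell by 0.25 in both. Fasn, the fatty acid synthase gene, passed in none and was at 127 to 1820 CPM within the Vec group alone.

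Genes that act after elongation were followed in 2 lists. Of 9 peroxisomal genes, 6 fell and 1 rose with knockdown (median -0.293), 2 fell with knockdown under BBR (median -0.257), 1 rose and 1 fell with BBR in Vec mice (median 0.164) and 2 rose with BBR in shRNA mice (median 0.139). Those that fell with knockdown included Acaa1a, Acaa1b, Pex5, Hsd17b4 and Scp2, of which Hsd17b4 and Scp2 rose with BBR in shRNA mice. Abcd2, which encodes a peroxisomal transporter of fatty acids, went from 7.13 ± 2.40 to 20.5 ± 4.17 CPM with BBR in Vec mice (mean ± SD of 5, log2 fold change 1.52, edgeR adjusted p = 0.000163). Abcd2 also rose with knockdown (0.65, edgeR adjusted p = 0.0443) and fell with knockdown under BBR (-0.72, edgeR adjusted p = 0.0296), as did Pex5 (-0.32, edgeR adjusted p = 0.0115). Of 6 tested genes that place polyunsaturated chains into phospholipids or activate them, Acsl3 and Acsl4 rose with BBR in Vec mice (log2 fold changes 0.69 and 0.65, edgeR adjusted p = 0.0112 and 0.00637), with a median of 0.236 over the list. Lpcat3, which esterifies arachidonic acid into phospholipids, passed in 3 comparisons. Its level was 163 ± 24.8 CPM without and 84.0 ± 10.9 CPM with knockdown, and under BBR 156 ± 9.31 CPM without and 112 ± 19.3 CPM with knockdown (mean ± SD of 5). It fell by 0.95 with knockdown (edgeR adjusted p = 3.65e-05) and by 0.48 with knockdown under BBR (edgeR adjusted p = 0.0181), and it rose by 0.41 with BBR in shRNA mice (edgeR adjusted p = 0.0294). The medians of that list were -0.078, -0.202 and 0.183 in these 3 comparisons.

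Lists of clock genes and of sex-biased liver genes were read beside Elovl3. Of 14 tested clock genes, 2 rose and 2 fell with knockdown, 3 rose and 2 fell with knockdown under BBR, 2 fell with BBR in Vec mice, and 1 rose and 3 fell with BBR in shRNA mice (medians -0.005, -0.129, -0.216 and -0.161). Those that passed included Arntl, Cry1, Dbp and Nr1d1 with knockdown, the same 4 with Nfil3 under BBR, Cry1 and Per3 with BBR in Vec mice, and Clock, Tef, Per1 and Per3 with BBR in shRNA mice. Among them Dbp, a clock output gene, fell by 1.34 with knockdown (edgeR adjusted p = 0.012) and Arntl rose by 1.10 (edgeR adjusted p = 0.0229), in the comparison in which Elovl3 fell. With BBR in shRNA mice, where Elovl3 rose, the log2 fold changes of Dbp and Arntl were -0.16 and -0.03 (edgeR adjusted p = 0.768 and 0.956). Of 10 tested male-biased genes, 4 fell with knockdown (Gstp1, Cyp4a12a, C6 and Cyp4a12b), 2 fell with BBR in Vec mice (Cyp7b1 and Slco1a1), and with BBR in shRNA mice 3 rose (Gstp1, Cyp4a12a and Cyp4a12b) and 2 fell (Cyp7b1 and Slco1a1). The medians were -0.554, -0.301 and -0.004, and with knockdown under BBR the median was -0.16. Cyp4a12a of that list fell by 1.65 with knockdown (edgeR adjusted p = 0.000794) and rose by 1.37 with BBR in shRNA mice (edgeR adjusted p = 0.00682), and its log2 fold change with BBR in Vec mice was 0.02 (edgeR adjusted p = 0.969). Cyp7b1 of the same list fell by 1.34 with BBR in Vec mice (edgeR adjusted p = 0.000309). Of 12 tested female-biased genes, 4 fell with BBR in Vec mice (among them Cyp3a41a, Cyp3a44 and Sult2a1, median of the list -1.426) and 5 fell in shRNA mice (among them the same genes and Sult3a1, median -1.351). With knockdown 2 rose (Cyp3a44 and A1bg, median 0.523), and under BBR 4 rose (Cyp3a41a, Cyp3a44, A1bg and Sult2a1) and Cyp2b9 fell (median 0.305). Slco1a1 and Cyp3a44 were close to the floor in Vec+BBR livers, at 0.0476 to 0.471 and 0 to 0.171 CPM. The part of clock time and of sex-biased expression in the values of Elovl3 was not tested.

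Markers of other cells moved in the same comparisons. Of 7 macrophage markers, Cd68 rose and Marco fell with BBR in Vec mice, Cd68 fell with knockdown and rose with BBR in shRNA mice, and the summed levels overlapped between all groups (119 to 322 CPM in Vec and 157 to 253 CPM in Vec+BBR). Of 6 endothelial markers, 3 rose with BBR in Vec mice, 3 rose with knockdown, and 1 rose and 2 fell with BBR in shRNA mice (77.1 to 102 CPM summed in Vec, 96.8 to 131 CPM in Vec+BBR, 110 to 138 CPM in shRNA). Of 7 hepatocyte markers, 3 fell with BBR in Vec mice, 1 with knockdown and 1 with BBR in shRNA mice. The summed cholangiocyte markers were at 2.23 to 5.25 CPM over the 20 livers. Of adipocyte markers only Cfd was tested, and it rose with BBR in both kinds of mice. It reached 0 in both groups without BBR, at 0 to 0.785 CPM in Vec and 0 to 0.228 CPM in shRNA livers, close to the floor. Of lymphocyte markers Cd3g fell with BBR in Vec mice, to 0 to 0.428 CPM, also close to the floor. That call was lost in 7 of 26 alternatives. The part of these markers in the values of the 8 genes was not tested.

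Between mice of the same group, that is after the group means had been removed from log2 CPM, the 8 genes fell into different patterns. Fads1 and Fads2 were each the gene most like the other of 9795 genes compared, with Pearson's r = 0.922 and Spearman's rho = 0.893 over 20 libraries, and r = 0.844 without the 2 libraries farthest from the median of Fads1. For Fads2 the next gene was Lss, which encodes lanosterol synthase (r = 0.874, rho = 0.886), and for Fads1 it was Cbfa2t3 (r = 0.90, rho = 0.82). Fads3 was most like Ankrd27 (r = 0.797, rho = 0.653) and then Elovl2 (r = 0.773), but for Fads3 and Elovl2 rho was only 0.558. Elovl2 itself was most like Tnfrsf12a (r = 0.818, rho = 0.768) and Baiap2l1 (r = 0.815, rho = 0.753).

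Elovl5 varied with lipogenic genes within groups, with r = 0.901 to Elovl6, 0.856 to Fasn, 0.821 to Scd1 and 0.767 to Pparg, and the genes most like it were Aqp8 (r = 0.958, rho = 0.926) and Anxa2 (r = 0.956, rho = 0.893). Without the 2 libraries farthest from its median these values were 0.809, 0.739, 0.655, 0.822, 0.913 and 0.91 over 18 libraries. Elovl1 was most like Fbf1 (r = 0.889, rho = 0.911) and Rabep2 (r = 0.856, rho = 0.767). With Pparg its r was 0.896 over all 20 livers but 0.348 within groups, so that the likeness lay between the groups. Scd2 was most like Commd10 (r = 0.856, rho = 0.747) and Mfge8 (r = 0.849, rho = 0.797), and Elovl3 most like Col27a1 (r = 0.868, rho = 0.716) and Prr13 (r = 0.848, rho = 0.579). For Elovl3 and Scd1 r was 0.638 within groups, but rho was 0.078. All these values come from the same 20 libraries and share their depth and the Vec mice that stand apart, and they are given without a test.

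**Figure D5:**
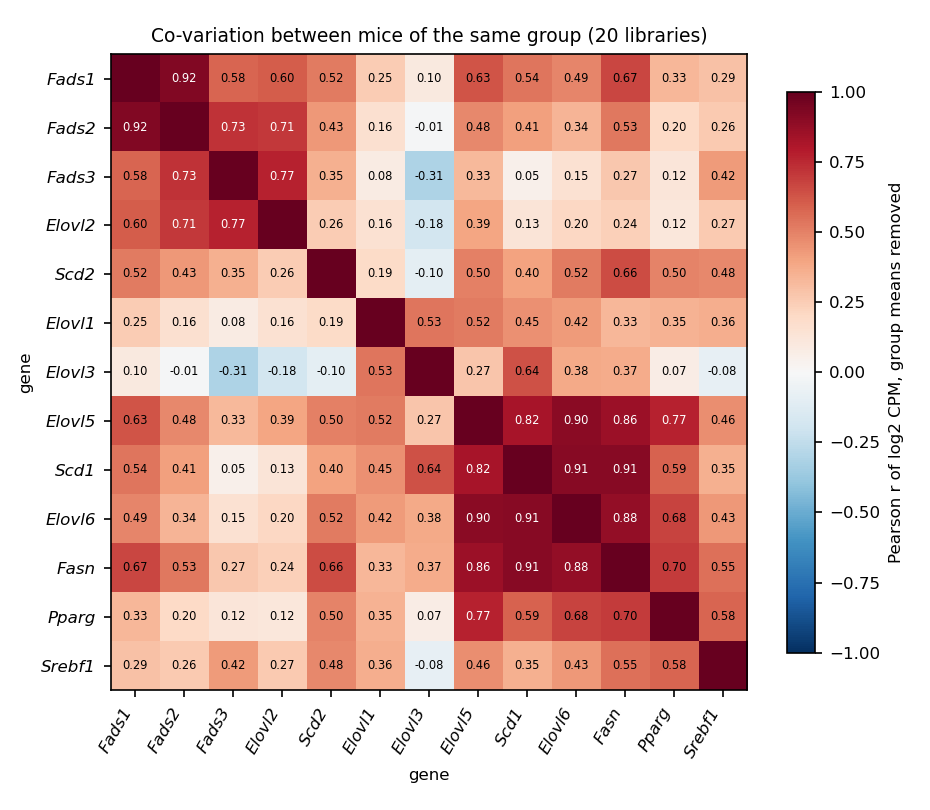
Pearson's r of log2 CPM between genes over 20 libraries after the group means were removed, for the 8 genes with Scd1, Elovl6, Fasn, Pparg and Srebf1. Elovl5 lies with Scd1, Elovl6 and Fasn (0.821, 0.901 and 0.856), and Fads1 lies with Fads2 (0.922).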

How the data were processed

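Liver RNA of 20 mice in 4 groups of 5 was measured, with groups taken from the labels of the libraries. The authors deposited expected counts (estimated counts per gene, not normalized) and FPKM for 22298 genes in each library, and 91.9% to 93.3% of the expected counts were whole numbers. The genome build is mm10 per the submitters' processing notes; the aligner, counter and annotation are not given in the sources used here. Reads that match several genes are divided in expected counts, which bears on Scd2, and poly(A) selection leaves other RNA unmeasured. FPKM, made by the authors before deposition, were used only for levels between genes.

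The expected counts were first rounded. A filter on low counts (filterByExpr of edgeR, minimum count 10, minimum total 15) left 12342 genes, which were scaled by TMM (factors 0.873 to 1.14) and tested with the quasi-likelihood test of edgeR 4.0.16 (limma 3.58.1, R 4.3.3) in 1 fit of the 4 groups without a block. P-values were adjusted by Benjamini-Hochberg over all 12342 genes, with a threshold of 0.05, in 5 comparisons. Totals of 17432904 to 25024099 counts per library and a biological coefficient of variation of 0.177 set the precision. The design text calls the replicates biological, and each library is 1 mouse. The script was tested on simulated data. The alternatives were RLE size factors, library size alone, 2 other filters, DESeq2 1.42.0, limma-voom with quality weights, the 2 groups alone, the replicate number as a block, and each library left out. Promoters are RefSeq windows, and positions are GENCODE M21 on GRCm38, where 22255 of the listed identifiers were found and 43 were not. Normalized CPM use the TMM factors, and correlations used log2 CPM with a prior count of 2 for genes with a mean count of at least 50.

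The set of 8 genes and the gene lists were chosen with earlier results of these data known, and their rows were then found by symbol alone. All 8 genes and Pparg are named, and of each list of related genes up to 6 that passed, by adjusted p, with Scd1, Elovl6, Srebf1 and Fasn. For likeness, the 2 genes with the highest r to each of the 8 are named. Mice of the same number were not treated as pairs. Protein sequences were not used here. Some list genes that the naming rule covers are not reported here.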

Additional observations from a re-analysis of the deposited data

Results flagged for a closer look

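In 6 of 52 groups of 5 mice tested for 1 mouse far from the others, a mouse stood apart. Chance flags about 1 in 20 such groups if they are independent and of normal spread. The groups here come from the same 20 mice, and genes such as Scd1 and Fasn vary together (r = 0.907 within groups). The 6 groups can therefore not be set against that rate. Of the 8 genes, Scd2 was at 27.1 CPM in shRNA+BBR replicate 4 against 6.16 to 10.2 CPM in the other 4 mice of the group. Fads3 was at 4.52 CPM in the same mouse against 2.91 to 3.37 CPM in the others. Elovl3 was at 6.69 CPM in Vec replicate 4 against 25.7 to 33.2 CPM in the other Vec mice, and Elovl5 was at 1350 CPM in Vec replicate 3 against 291 to 582 CPM. Of the other genes followed, Scd1 was at 25400 CPM and Fasn at 1100 CPM in shRNA replicate 1, against 6080 to 10900 CPM and 379 to 471 CPM in the other shRNA mice.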

How the results depend on the processing

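Of 1112 values of the 8 genes under an alternative, 1055 kept their direction and their side of the threshold, 26 lost the call, 18 gained one and 13 turned in sign. With BBR in Vec mice, the number of the 8 genes past the threshold was 2, where 15.5% of all genes passed. It was 4 under library size alone (18.6% of all genes), 1 without a filter (9.62%), 3 with DESeq2 (18.2%) and 5 with limma-voom (18.7%). It was 1 with the replicate block (14.2%) and 1 with the 2 groups alone (9.85%). With 1 library left out it was 0 to 6 (9.93% to 19.3%), with 6 without Vec replicate 3. With knockdown in vehicle-treated mice it was 3 (13.2% of all genes), against 5 with limma-voom (15.1%) and 3 to 5 with 1 library left out (8.16% to 18.3%). With knockdown under BBR it was 1 (8.13%), against 1 to 2 over the alternatives (4.32% to 11.8%). With BBR in shRNA mice it was 4 (15.7%), against 3 to 4 over the alternatives (5.31% to 20.3%). Values that turned in sign had not passed the threshold, and for these the range of the log2 fold change with 1 library left out follows. With BBR in Vec mice it was -0.0096 to 0.32 for Elovl2, -0.022 to 0.36 for Elovl3 and -0.049 to 0.84 for Elovl6. Between shRNA and Vec livers it was -0.18 to 0.084 for Elovl2 (0.037 under library size alone and 0.0072 with limma-voom), -0.28 to 1.01 for Scd1, -0.80 to 0.13 for Elovl6 and -0.76 to 0.29 for Fasn (0.18 with limma-voom). With knockdown under BBR it was -0.47 to 0.15 for Fasn (0.012 with the replicate block). With BBR in shRNA mice it was -0.068 to 0.061 for Elovl2 (0.0083 with at least 10 counts in every sample and 0.015 with limma-voom). For the difference of the 2 BBR effects it was -0.29 to 0.43 for Scd2, -1.18 to 0.097 for Scd1, -0.38 to 0.049 for Srebf1 and -0.32 to 0.72 for Fasn (-0.37 with limma-voom). The cause of these changes was not tested.

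Scaling by library size alone moved the median of all genes from -0.005 to 0.128 with BBR in Vec mice, where 1831 of 2290 calls were then higher against 936 of 1908, and gave 1098 of 1657 higher against 652 of 1628 with knockdown. For the difference of the 2 BBR effects it gave 8 of 30 higher against 9 of 18, and DESeq2 called 330 genes there and limma-voom 154. Same-numbered mice deviated together (r over 0.1) in at most 3 of 5 numbers between any 2 groups, so the replicate block is given as an alternative only. Of the 8 genes, Fads3 and Scd2 had the lowest counts, at 33 to 125 and 85 to 593, and some list genes were lower, such as Elovl7 at 2 to 86. Of 102 calls of list genes, counted without Scd1, Elovl6, Srebf1 and Fasn, 46 were kept in every alternative run and 56 were lost in at least 1. The call of Srebf1 with BBR in Vec mice, not among the 102, was lost in 15 of 28 alternatives. Those of the 102 lost in 10 or more were Nr1h2 with BBR in Vec mice (10), Hsd17b12 with knockdown under BBR (10), Abcd2 and Cyp4a12b with knockdown (11 and 12), and Slco1a1, Stab2, Lrat and Sult2a1 with BBR in shRNA mice (12, 13, 15 and 16).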
